A study of Homo sapiens with 9 samples.

Results

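RPS6, RPLP2 and RPL37 encode proteins of the cytosolic ribosome, and they were the genes of that group whose RNA was counted deeply enough to be compared between treatments in U-87 cells. They were selected on their counts, as the rows of the deposited count table whose RefSeq transcript belongs to these genes, with the transcripts of a gene summed, and they are 3 of 82 cytosolic ribosomal protein genes and 3 of the 5564 genes or unmatched transcripts with at least 1 count. That they carried usable counts was itself read from these libraries, so their abundance is a description and not a finding. The question put to the series was how evernic acid (EA), a lichen depside, alters gene expression in glioblastoma cells alone and together with temozolomide (TMZ), the alkylating drug used against this tumour.

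U-87 is an established human glioblastoma line, and all libraries came from this single line, treated for 24 h. Controls were untreated (3 libraries), and each treatment had 1 library, namely EA at 30 µM (EA30) or at 45 µM (EA45), EA at 35 µM with TMZ at 320 µM (EA35TMZ320), EA at 20 µM with TMZ at 380 µM (EA20TMZ380) or at 580 µM (EA20TMZ580), and TMZ at 600 µM (TMZ600). RNA was measured as reads of 3′ end libraries counted per RefSeq transcript. The table holds 1 library per treatment, and the labels do not say whether the 3 controls were separate cultures, so every p-value below measures only the spread between these libraries and assumes that a treated library varies like a control. Total counts were 259753 to 285248 in the controls and 213566 to 490235 in the treated libraries, the lowest being EA35TMZ320 and the highest EA30. Rows of the mitochondrial genome took 48.4 to 49.1% of the counts in the controls and 51.7 to 58.7% in the treated libraries, so that the remaining nuclear counts numbered 96265 to 205133 per library. Of 8 genes listed as markers of glioblastoma lines, 6 were listed at 0 in every library and 1 could be tested. This was the row named NES, an intermediate filament gene, at 559 ± 40.9 CPM (counts scaled to a common library size, SD, n = 3) in the controls and at most 157 CPM in the treated libraries. No check was made that its reads came from that gene. All 8 markers of other cell types were listed at 0.

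Ribosomal proteins are made in matched amounts, and their mRNAs are among the most abundant of a growing cell. Most of these mRNAs begin with a C followed by an unbroken run of pyrimidines, the 5′ terminal oligopyrimidine (TOP) motif, through which the mTORC1 kinase pathway controls how strongly they are translated. RPS6 is the small subunit protein that S6 kinase phosphorylates downstream of mTORC1, RPLP2 is an acidic protein of the large subunit stalk that recruits elongation factors, and RPL37 is a zinc-binding protein of the large subunit.

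RPS6 lies on the minus strand of chromosome 9 at bases 19375715 to 19380236 of GRCh38 and was counted as the single transcript NM_001010.3. RPLP2 lies on the plus strand of chromosome 11 at bases 809967 to 812876 and was counted as NM_001004.4. RPL37 lies on the minus strand of chromosome 5 at bases 40825262 to 40835222. It has 2 rows, of which NM_000997.5 held all 221 counts and NR_159993.1 was listed at 0. The end of RPS6 overlaps AL391834.2, an antisense gene, by 282 bases in GENCODE 29, and the strand setting of the counting is not given in the sources used here, so reads from the pair cannot be told apart there. GENCODE 29 names 13 pseudogenes of RPS6, 11 of RPL37 and 1 of RPLP2. No row of the table carried the symbol of any of them, so how reads shared with such copies were counted was not tested.

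The sequences around the annotated transcription starts of RPS6 and RPLP2, the members with deep counts, show the pyrimidine run that defines TOP mRNAs, and EEF2 is shown beside them because it is a deeply counted translation factor gene of the same class, whose values follow below those of the members. Each line gives 120 bases before the start and 20 bases from it, from RefSeq on GRCh38.p14, read 5′ to 3′ on the strand of the gene, with the run of C and T that meets the 11 bases around the start in capitals.
RPS6, chr9:19380217-19380356, minus strand: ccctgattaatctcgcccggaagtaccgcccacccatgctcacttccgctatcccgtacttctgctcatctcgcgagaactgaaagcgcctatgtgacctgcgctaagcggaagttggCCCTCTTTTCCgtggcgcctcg
RPLP2, chr11:809847-809986, plus strand: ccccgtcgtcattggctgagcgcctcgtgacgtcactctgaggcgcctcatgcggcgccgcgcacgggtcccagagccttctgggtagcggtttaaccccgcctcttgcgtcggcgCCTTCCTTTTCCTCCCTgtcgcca
EEF2, chr19:3985444-3985583, minus strand: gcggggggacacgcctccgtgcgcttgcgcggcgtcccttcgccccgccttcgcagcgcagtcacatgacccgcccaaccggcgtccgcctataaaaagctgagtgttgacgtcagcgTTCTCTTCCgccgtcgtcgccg

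The run measured 11 bases in RPS6, beginning 2 bases before the annotated start, 17 bases in RPLP2, beginning 4 bases before it, and 9 bases in EEF2. A run of at least 8 bases stood at the start of 77.3% of the 66 cytosolic ribosomal protein genes with a promoter sequence and of 11.3% of 27305 promoters, with median lengths of 11 and 4 bases. The letters CCGGAAGT, searched on both strands of the 300 bases around each start, were found in RPS6 and RPLP2 and in 4.44% of all promoters. GCGGAAGT was found in RPS6 and in 2.20% of promoters. TGACGTCA was found in RPLP2 and EEF2 and in 1.98% of promoters, GGGCGG in RPS6 and EEF2 and in 44.6%, ATGGCGGC in EEF2 and in 3.21%, and TATAAA in EEF2 and in 12.0%. A match describes these letters only.

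**Figure D1:**
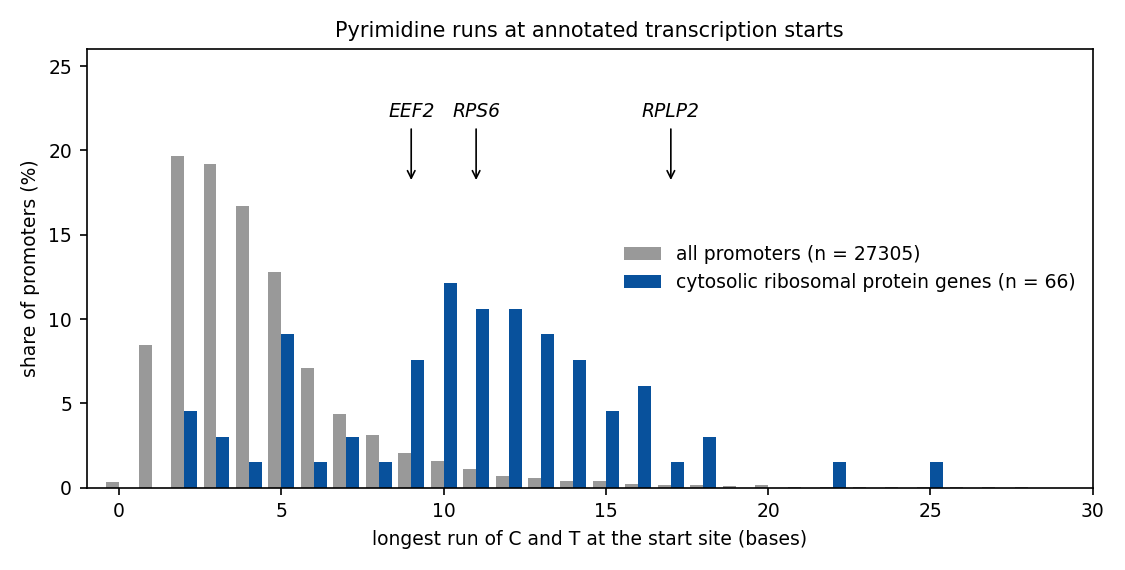
Share of promoters (%, vertical axis) by the length in bases of the pyrimidine run at the annotated start (horizontal axis), for all 27305 promoters (grey) and for 66 cytosolic ribosomal protein genes (blue). The runs of RPS6 (11 bases), RPLP2 (17 bases) and EEF2 (9 bases) are marked by arrows, and all 3 lie above the median of 4 bases over all promoters.

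RPS6 and RPLP2 were the most counted nuclear rows of the table, with means of 11579 and 9596 counts per library, while RPL37 had a mean of 24.6. The next genes of the group, below the minimum mean of 10 counts set for testing, were RPL36 with a mean of 2.00, RPL21 with 1.67 and RPL15 with 1.00. In every library, 71 of the 82 genes stood at 0, although every growing cell uses them, so a 0 in this table does not show that a gene was silent. Rows with counts were likewise not checked to hold reads of the gene they name. Of the 37 genes with 1 transcript row 32 were listed at 0 in every library, and of the 45 with several rows 39 were.

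Counts of RPS6 were 10498, 10285 and 11348 in controls 1 to 3, 15942 in EA30, 12506 in EA45, 11682 in TMZ600, 12912 in EA20TMZ380, 10202 in EA20TMZ580 and 8834 in EA35TMZ320. As a share of nuclear counts these were 7.60, 7.68 and 7.82% in the controls (mean 7.70 ± 0.110%, SD, n = 3), 7.77% in EA30, 8.49% in EA45, 7.94% in TMZ600, 8.24% in EA20TMZ380, 7.47% in EA20TMZ580 and 9.18% in EA35TMZ320. EA45, EA35TMZ320, EA20TMZ380 and TMZ600 lay above every control, EA20TMZ580 lay below, and EA30 lay within the control range. The 95% Wilson interval of the highest share, in EA35TMZ320, was 9.0 to 9.36%, and that of the lowest, in EA20TMZ580, was 7.33 to 7.61%; the latter overlaps the interval of control 1, 7.46 to 7.74%. Such intervals cover counting error only, because reads without molecular identifiers are not independent molecules. Over all 6 treatments the mean share was 8.18 ± 0.603% (SD, n = 6), 0.485 percentage points above the controls, with p = 0.238 in a two-sided exact permutation test whose smallest possible p is 0.0238. Leaving out 1 library moved this difference between 0.286 (without EA35TMZ320) and 0.626 (without EA20TMZ580). The treated libraries ranged more widely than the controls, and the groups overlapped. In such bulk samples, fewer or more cells with this mRNA and less or more of it per cell cannot be told apart.

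RPLP2 was counted 9195, 8517 and 9088 times in controls 1 to 3, 13031 times in EA30, 10130 in EA45, 9025 in TMZ600, 11808 in EA20TMZ380, 8560 in EA20TMZ580 and 7007 in EA35TMZ320. Its share of nuclear counts was 6.65, 6.36 and 6.26% in the controls (6.42 ± 0.206%, SD, n = 3), 6.35% in EA30, 6.88% in EA45, 6.13% in TMZ600, 7.54% in EA20TMZ380, 6.27% in EA20TMZ580 and 7.28% in EA35TMZ320. The same 3 libraries that were highest for RPS6, EA45, EA35TMZ320 and EA20TMZ380, were above every control, and TMZ600 alone was below. The mean over the 6 treatments, 6.74 ± 0.581% (SD, n = 6), exceeded that of the controls by 0.317 percentage points (p = 0.429, two-sided exact permutation test), and by 0.158 (without EA20TMZ380) to 0.439 (without TMZ600) with 1 library left out; it was 0.210 without EA35TMZ320. RPS6 and RPLP2 together made up 14.0 to 14.3% of nuclear counts in the controls and 13.7 to 16.5% in the treated libraries. As shares of all counts, mitochondrial rows included, the treated mean was lower than that of the controls for both genes, by 0.336 percentage points for RPS6 (p = 0.238) and by 0.325 for RPLP2 (p = 0.119, exact permutation tests), so the direction depended on the denominator.

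RPL37 was counted 36, 22 and 23 times in controls 1 to 3, 36 times in EA30, 45 in EA45, 17 in TMZ600, 13 in EA20TMZ380, 16 in EA20TMZ580 and 13 in EA35TMZ320. Its shares of nuclear counts were 0.0261, 0.0164 and 0.0158% in the controls (0.0194 ± 0.00574%, SD, n = 3), 0.0175% in EA30, 0.0305% in EA45, 0.0116% in TMZ600, 0.00830% in EA20TMZ380, 0.0117% in EA20TMZ580 and 0.0135% in EA35TMZ320. The 4 libraries that had received TMZ lay below every control and EA45 lay above. These counts are small, and the Wilson interval of control 3, 0.0106 to 0.0238%, covered the shares of EA35TMZ320, EA20TMZ580 and TMZ600. The difference between the 6 treatments and the controls was -0.00391 percentage points (p = 0.476, two-sided exact permutation test). With 1 library left out it lay between -0.00692 (without EA45) and -0.000605 (without control 1), and it was -0.00247 without EA20TMZ380. SNORD72, a row within an intron of RPL37, held a mean of 4068 counts. How reads were divided between it and RPL37 was not tested, so the RPL37 counts may not give the level of its mRNA.

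**Figure D2:**
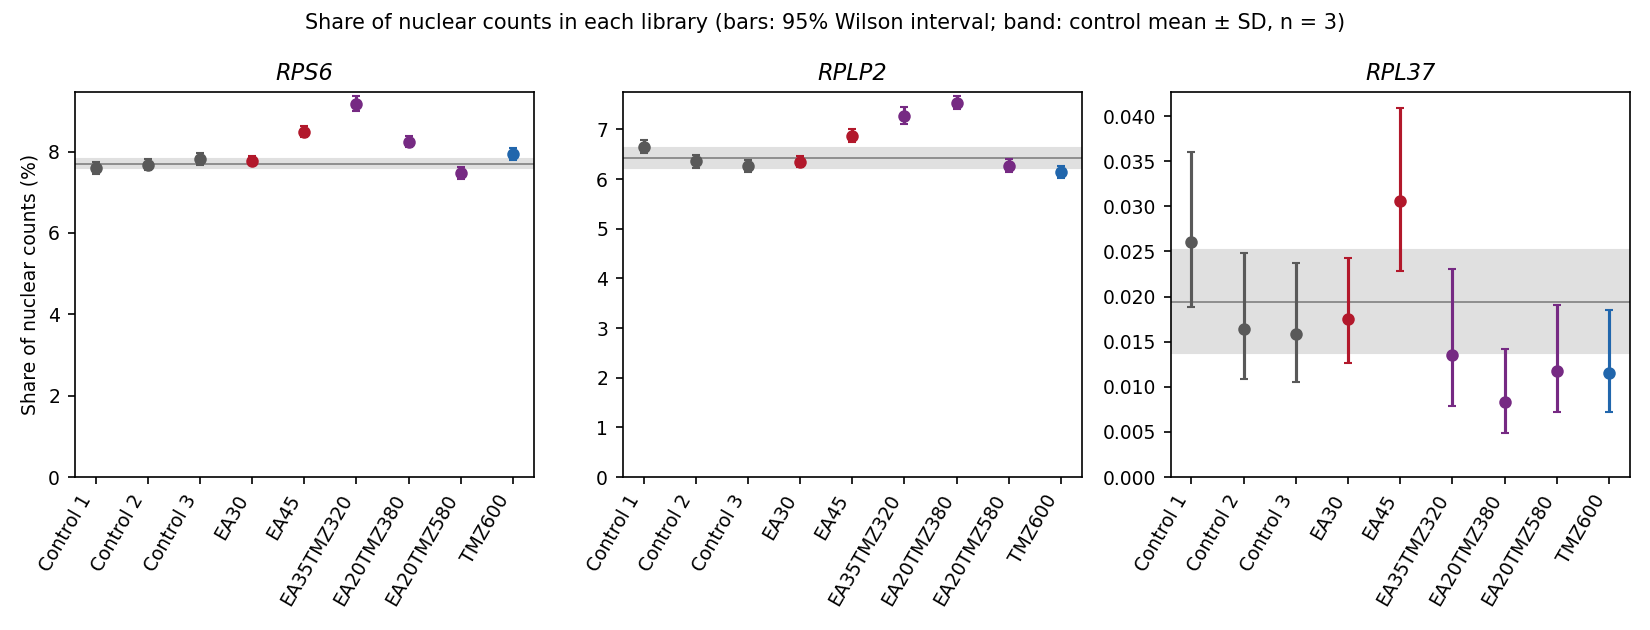
Share of nuclear counts (%, vertical axes starting at 0) of RPS6, RPLP2 and RPL37 in each of the 9 libraries (horizontal axes), with controls in grey, EA alone in red, combinations in purple and TMZ alone in blue. Bars are 95% Wilson intervals and the band is the control mean ± SD (n = 3); EA45, EA35TMZ320 and EA20TMZ380 stand above the band for RPS6 and RPLP2, and the intervals of RPL37 are wide relative to its differences.

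The proportion of RPS6 to RPLP2 varied between libraries, from 1.09 in EA20TMZ380 to 1.29 in TMZ600. There were 1.14, 1.21 and 1.25 counts of RPS6 per count of RPLP2 in controls 1 to 3, 1.22 in EA30, 1.23 in EA45, 1.29 in TMZ600, 1.09 in EA20TMZ380, 1.19 in EA20TMZ580 and 1.26 in EA35TMZ320. Only EA20TMZ380 was below and EA35TMZ320 and TMZ600 above the range of the controls, and the 95% intervals of controls 1 and 3, 1.11 to 1.17 and 1.21 to 1.28 (counting error only), did not overlap. This proportion does not depend on how libraries are scaled.

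Each treatment was compared with the controls on normalised counts by the quasi-likelihood F-test of edgeR with trimmed mean of M-values (TMM) scaling and Benjamini-Hochberg adjustment over all 609 rows tested. All 3 members were tested in every comparison, and none passed the adjusted threshold of 0.05 in any of the 18 comparisons of a member with a single treatment. At an unadjusted p under 0.05 there were 4 of 18, in EA45, EA35TMZ320 and EA20TMZ380, while of all rows 20.9% had such a p in TMZ600, 28.1% in EA30, 35.8% in EA20TMZ580, 36.9% in EA20TMZ380, 46.1% in EA45 and 50.2% in EA35TMZ320. After adjustment no member passed with the Wald test of DESeq2, by which 20 to 150 rows passed in a single treatment, or with limma-voom, by which 55 to 237 did. By edgeR, 9.85% of all 609 rows passed in TMZ600, 17.6% in EA30, 24.6% in EA20TMZ580, 26.1% in EA20TMZ380, 39.1% in EA45 and 43% in EA35TMZ320.

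The largest differences of RPS6 were in EA35TMZ320, at a log2 fold change of 0.22 (SE 0.10, adjusted p = 0.0610), and in EA45, at 0.20 (SE 0.10, adjusted p = 0.103). The value was 0.12 in EA20TMZ380 (adjusted p = 0.395), -0.09 in TMZ600 (0.669) and -0.16 in EA20TMZ580 (0.259), each with an SE of 0.10. In EA30 it was close to 0, with a 95% interval of -0.20 to 0.20. The 95% intervals reached from -0.36 in EA20TMZ580 to 0.42 in EA35TMZ320, while the median absolute log2 fold change over all rows was 0.35 in TMZ600 and 0.81 in EA35TMZ320, the lowest and the highest of the 6. Without control 1 RPS6 passed in EA35TMZ320 (0.23, adjusted p = 0.0144) and in EA45 (0.19, 0.0490).

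RPLP2 differed most in EA20TMZ380, at 0.25 (SE 0.10, adjusted p = 0.0639, edgeR). Its log2 fold change was 0.16 in EA45 (adjusted p = 0.236), 0.15 in EA35TMZ320 (0.247), -0.03 in EA30 (0.858), -0.15 in EA20TMZ580 (0.307) and -0.20 in TMZ600 (0.252). Without control 1 it passed in EA20TMZ380 (0.27, adjusted p = 0.00552). In normalised counts (CPM), RPLP2 ran from 26258 in TMZ600 to 35985 in EA20TMZ380, against 30267 ± 1124 (SD, n = 3) in the controls. RPS6 ran from 32425 in EA20TMZ580 to 42353 in EA35TMZ320, against 36260 ± 377.

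The values for RPL37 were larger and their errors larger still. It was 0.71 in EA45 (SE 0.48, adjusted p = 0.255) and -1.20 in EA20TMZ380 (SE 0.58, adjusted p = 0.121), with -0.16 in EA30, -0.55 in EA35TMZ320, -0.84 in EA20TMZ580 and -0.88 in TMZ600. Without control 1 the value in EA35TMZ320 was -0.27. Normalised, it stood at 91.6 ± 27.2 CPM in the controls and between 39.6 and 150 in the treated libraries. For EA20TMZ380 the 95% interval ran from -2.36 to -0.04, which spans a difference near 0 and a several-fold lower level.

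These results for RPS6 and RPLP2 depended on whether mitochondrial rows were part of the fit. With nuclear rows alone (596 tested), the log2 fold changes moved up with the median of all rows, by 0.09 in EA20TMZ380 and EA35TMZ320 and less elsewhere, and their errors shrank. The quasi-dispersion of RPS6, the measure of spread in this model, was 0.456 with all rows and 0.107 with nuclear rows, and that of RPLP2 was 0.487 and 0.117. RPS6 then passed at 0.25 in EA45 (adjusted p = 0.000298, edgeR), 0.31 in EA35TMZ320 (1.86e-05) and 0.21 in EA20TMZ380 (0.00281), and was lower in EA20TMZ580 at -0.14 (0.0445). RPLP2 passed at 0.21 in EA45 (adjusted p = 0.00273, edgeR), 0.24 in EA35TMZ320 (0.000598) and 0.34 in EA20TMZ380 (2.73e-05), and was lower in TMZ600 at -0.20 (0.0160). In total 8 of these 12 comparisons passed, 6 with a higher and 2 with a lower level, and 0 of 6 for RPL37. Of all nuclear rows, 19.6% passed with a higher level in EA45, 22% in EA35TMZ320 and 12.8% in EA20TMZ380, and with a lower level 12.6% in EA20TMZ580 and 5.87% in TMZ600. In EA30, where no member passed, 15.6% of them did in either direction.

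Scaling to library totals without TMM moved in the opposite direction. It shifted all rows by a median log2 difference of -0.28 in EA30 and EA20TMZ380, -0.24 in EA45, -0.19 in EA20TMZ580 and -0.16 in EA35TMZ320, and by 0.05 in TMZ600. RPS6 then stood at -0.04 in EA45, 0.07 in EA35TMZ320 and -0.17 in EA20TMZ380, and RPLP2 at -0.08, -0.01 and -0.04. Under that scaling both genes were lower in EA30, at -0.28 (adjusted p = 0.0377) and -0.31 (0.0264), and in EA20TMZ580, at -0.36 (0.00652) and -0.35 (0.0105, all edgeR), shifts of about the size of the median of all rows in EA30. The mitochondrial share was 48.6, 48.4 and 49.1% in controls 1 to 3, 58.2% in EA30, 54.8% in EA45, 51.7% in TMZ600, 57.4% in EA20TMZ380, 58.7% in EA20TMZ580 and 54.9% in EA35TMZ320, and its part in these results was not tested.

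**Figure D3:**
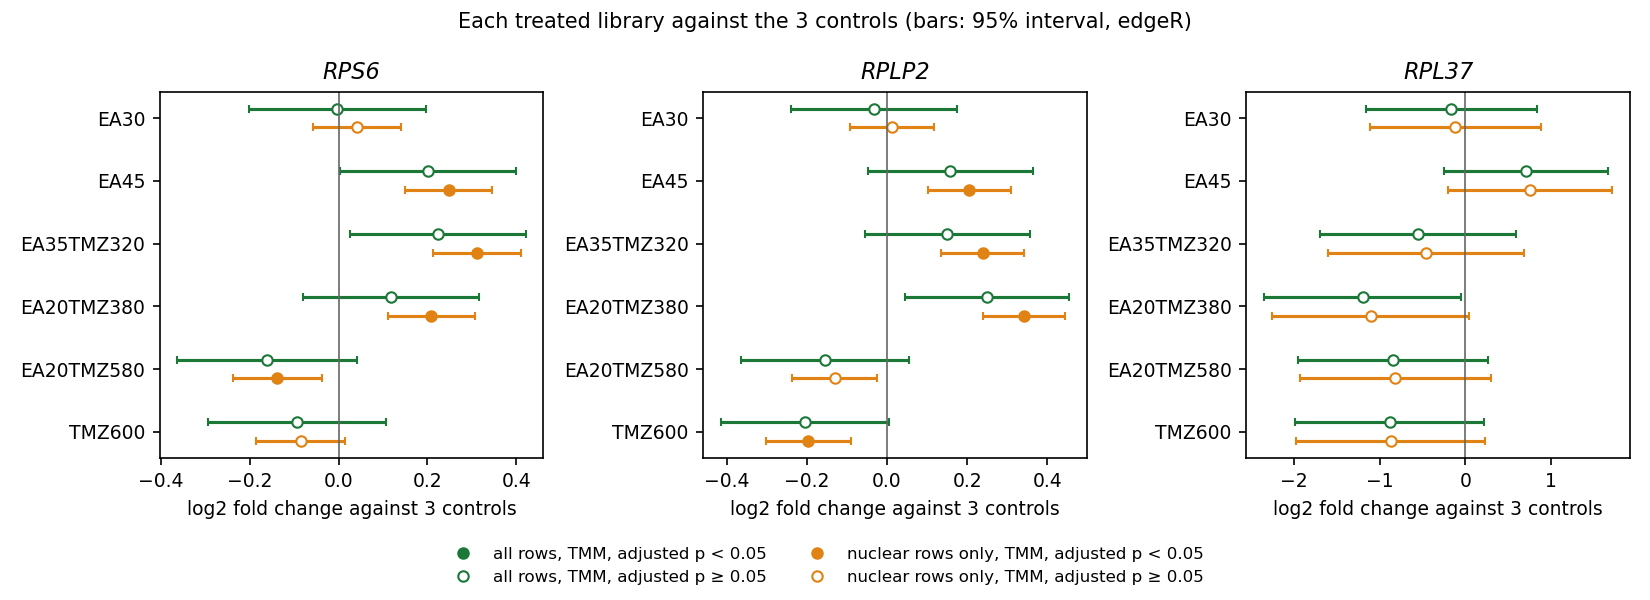
Log2 fold change against the 3 controls (horizontal axes, 95% intervals of the edgeR fit) of RPS6, RPLP2 and RPL37 in each treated library (vertical axes), with all rows in the fit (green) and with nuclear rows only (orange), filled where the adjusted p is under 0.05. No green point is filled, and 8 orange points are, 6 of them above 0, in EA45, EA35TMZ320 and EA20TMZ380; the axis of RPL37 is wider than the others.

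In the order of normalised levels, RPS6 descended from EA35TMZ320 through EA45, EA20TMZ380, the controls, EA30 and TMZ600 to EA20TMZ580. For RPLP2 the order was EA20TMZ380, EA45, EA35TMZ320, controls, EA30, EA20TMZ580 and TMZ600, and for RPL37 it was EA45, controls, EA30, EA35TMZ320, EA20TMZ580, TMZ600 and EA20TMZ380. On this scale RPS6 and RPLP2 had the same 3 treatments above the control mean and the same 3 below, with EA30 inside the range of the controls for both. As shares of nuclear counts, RPS6 in TMZ600 lay above every control instead and RPLP2 in TMZ600 below every control. None of the 18 pairs of neighbours in these orders differed beyond the spread of the fit with all rows, in that the 95% interval of every difference held 0. Neighbours were picked after sorting by level and so differ little, and the ends of the orders were not compared in this way.

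Taking treatments together, the 3 combinations gave 0.07 for RPS6 (adjusted p = 0.748, edgeR), 0.09 for RPLP2 (0.684) and -0.86 for RPL37 (SE 0.40, 0.185), where 11.9% of 597 rows passed. For EA alone, in 2 libraries, the values were 0.14 (0.422), 0.10 (0.558) and 0.36 (0.562), where 16.8% of 636 rows passed. All 6 treatments against the controls gave 0.05 (0.831), 0.04 (0.890) and -0.34 (0.649), where 6.4% of rows passed. These values moved with single libraries. For the 3 combinations, RPS6 was 0.24 and RPLP2 0.27 without EA20TMZ580, RPS6 was 0.04 without EA35TMZ320 or without control 1, and RPLP2 was 0.02 without EA20TMZ380 and 0.06 without control 3. For EA alone, which rests on 1 library once the other is left out, RPS6 was 0.23 without EA30 and 0.05 without EA45, and RPLP2 was 0.19 and 0.02. For all 6 treatments, leaving out 1 library gave 0.03 to 0.14 for RPS6, -0.01 to 0.12 for RPLP2 and -0.68 (without EA45) to -0.07 (without control 1) for RPL37, the highest values of RPS6 and RPLP2 being those without EA20TMZ580. No member passed in these 3 comparisons, with none at an unadjusted p under 0.05 and none by DESeq2 or limma-voom. Doses differ within each of these groups, whose libraries are therefore no replicates, and opposite values within a group cancel, such as those of EA20TMZ380 and EA20TMZ580 for RPS6 and RPLP2.

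In a model with a term for each compound, RPS6 stood at 0.05 and RPLP2 at 0.04 on the log2 scale per 10 µM EA (adjusted p = 0.341 and 0.416, edgeR), where 27.3% of rows passed. Per 100 µM TMZ both stood at -0.02 (0.791 for each), where 3.61% of rows passed and 17.6% had an unadjusted p under 0.05. RPL37 stood at 0.07 per 10 µM EA (0.626) and at -0.19 per 100 µM TMZ (SE 0.07, unadjusted p = 0.0140, adjusted p = 0.161). A term for the product of both doses gave adjusted p-values of 0.989 for RPS6 and 0.974 for RPLP2 and RPL37, in a model where 0% of rows passed and 26 rows had an unadjusted p under 0.05.

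The profiles of 494 rows with a gene symbol were compared with that of RPS6 over the 9 libraries. The measure was the root mean square difference of log2 levels relative to the control mean. Nearest was the row named LINC02022, a long non-coding RNA gene on chromosome 3, at 0.05. ZNF780B at 0.07 and RPLP2 at 0.07 followed. The LINC02022 row held a mean of 8431 counts, and its reads were not checked to come from that gene. For RPLP2 the closest were LINC02022 at 0.07, RPS6 at 0.07 and SNORD72, a small nucleolar RNA, at 0.10. The median over all rows was 0.61 for RPS6 and 0.63 for RPLP2. Rows with small changes lie near each other by this measure, and all 9 points share libraries and scaling. ZNF780B, among the nearest to RPS6, had a mean of 134 counts.

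For RPL37 the difference was 0.60 from RPS6 and 0.61 from RPLP2, which were the 71st and the 75th nearest of 494 rows, against a median of 0.82 over all rows. Its nearest rows were C3, a complement gene, at 0.33, LOC105370664 at 0.33 and TRPC1, a cation channel gene, at 0.37. Its counts are low enough that counting error enters these distances.

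SNORD72 lies within intron 3 of RPL37, at bases 40832656 to 40832735 and 82 bases before the last exon, and its row held a mean of 4068 counts per library against 24.6 for its host. There were 9.35, 6.36 and 6.02 counts of RPL37 per 1000 of SNORD72 in controls 1 to 3, 5.66 in EA30, 9.91 in EA45, 4.68 in TMZ600, 2.75 in EA20TMZ380, 4.84 in EA20TMZ580 and 4.47 in EA35TMZ320. The 4 libraries with TMZ had the lowest values, which rest on the same RPL37 counts as the shares above. Reads of the SNORD72 row were not checked to come from the small nucleolar RNA rather than from RPL37. This row stood at 0.27 in EA45 (adjusted p = 0.0648, edgeR) and at -0.26 in EA20TMZ580 (0.116) on the log2 scale. It passed in none of the single treatments with all rows in the fit and, with nuclear rows only, in all 6, being higher in EA30, EA45, EA35TMZ320 and EA20TMZ380 and lower in EA20TMZ580 and TMZ600.

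**Figure D4:**
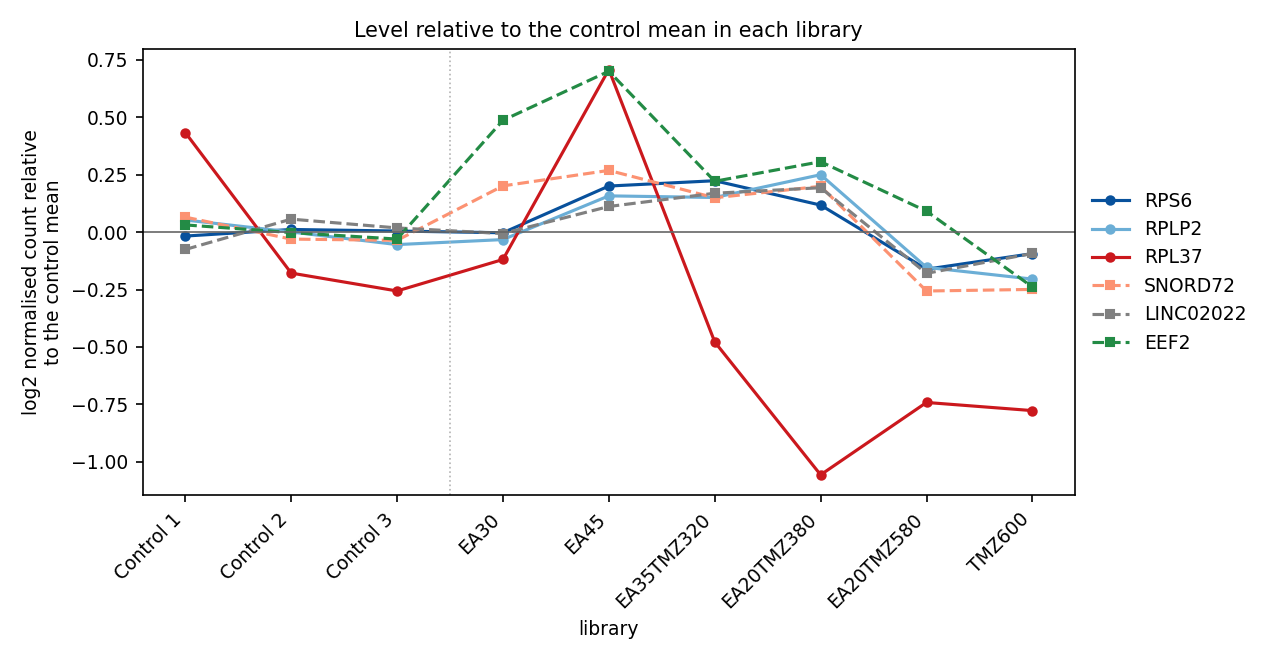
Log2 normalised count relative to the control mean (vertical axis) in each library (horizontal axis) for RPS6, RPLP2 and RPL37 (solid lines) and for SNORD72, LINC02022 and EEF2 (dashed lines). RPS6, RPLP2 and LINC02022 run close together, EEF2 reaches 0.70 in EA45, and RPL37 lies at -1.06 in EA20TMZ380, where it did not pass, and between -0.26 and 0.43 among the controls.

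Among 47 translation factors and other genes of the TOP class, 3 were tested. EEF2, the elongation factor that moves the ribosome along the mRNA, was the most counted of them, with 25049, 24476 and 24001 CPM in controls 1 to 3, 34351 in EA30, 39838 in EA45, 20771 in TMZ600, 30317 in EA20TMZ380, 26109 in EA20TMZ580 and 28574 in EA35TMZ320. All treated libraries but TMZ600 lay above the controls. EEF2 rose by a log2 fold change of 0.49 in EA30 (adjusted p = 0.000267), 0.70 in EA45 (9.59e-08) and 0.31 in EA20TMZ380 (0.0218, edgeR), and per 10 µM EA by 0.15 (0.00656). With library totals in place of TMM the calls in EA30 and EA20TMZ380 were lost, and that in EA20TMZ380 was also lost with no filter on low counts, with a mean of at least 50 counts, without control 2 and without control 3. The call of the dose term was lost without EA45. With nuclear counts only, EEF2 also passed in EA35TMZ320, where it was higher (0.31, adjusted p = 4.51e-05), and in TMZ600, where it was lower (-0.23, 0.00559, edgeR). The other tested genes of this list, EEF1G and EIF3A, passed in no single treatment.

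Set against RPS6, which needs no scaling, EEF2 gave 0.699, 0.670 and 0.660 counts per count of RPS6 in controls 1 to 3. It gave 0.949 in EA30, 0.956 in EA45, 0.611 in TMZ600, 0.770 in EA20TMZ380, 0.805 in EA20TMZ580 and 0.675 in EA35TMZ320. The ratio was highest in both libraries of EA alone, within the control range in EA35TMZ320 and below it in TMZ600. It was formed after the values were seen and is given without a test.

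Of 35 genes of the S6 kinase and mTORC1 pathway, which acts on RPS6, 33 were listed at 0 and 1 was tested. This was RRAGA, a Rag GTPase that recruits mTORC1 to the lysosome. Its level was 4496, 5364 and 4528 CPM in controls 1 to 3, 7374 in EA30, 8175 in EA45, 2557 in TMZ600, 7616 in EA20TMZ380, 5006 in EA20TMZ580 and 4483 in EA35TMZ320. RRAGA rose in EA30 (0.62, adjusted p = 0.000443), EA45 (0.77, 5.18e-06) and EA20TMZ380 (0.67, 0.000115) and fell in TMZ600 (-0.91, 7.68e-06, all edgeR), and with library totals the call in EA30 was lost. mRNA levels of this kind carry no information on the phosphorylation of the RPS6 protein, which was not measured here.

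Of 51 genes of ribosome assembly and RNA polymerase I, 2 were tested, and 1 of them passed once, TSR1 in EA20TMZ580 (1.29, adjusted p = 0.0351, edgeR), a call lost under 4 of 10 alternatives, among them without control 2 and without control 3. BRIX1, the other, passed in no treatment with all rows in the fit, and with nuclear counts only it passed in EA35TMZ320 (0.57, adjusted p = 0.0322, edgeR). Of 79 mitochondrial ribosomal protein genes 3 were tested. MRPS30 passed with a higher level in all treatments but TMZ600, by 0.88 to 1.86, and in TMZ600 its level, 370 CPM, was also above every control (249 to 350 CPM). By the Wald test of DESeq2 the calls in EA30 (adjusted p = 0.0822) and EA20TMZ580 (0.134) were lost. MRPL54 passed in EA20TMZ580 (-1.24, adjusted p = 3.74e-05, edgeR), and its levels in all 6 treated libraries, 264 to 580 CPM, were below every control (604 to 635 CPM). MRPL45 passed in none. Differences between treatments were not tested for these genes. POLR2L, a small subunit shared by the nuclear RNA polymerases and the only tested one of 12 genes of RNA polymerase II, fell in EA30, EA45, EA35TMZ320 and EA20TMZ580, most in EA45 (-1.62, 2.27e-13, edgeR). Its call in EA30 was lost without control 2, and that in EA20TMZ580 without control 2, without control 3, with no filter on low counts and by the Wald test of DESeq2.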

How the data were processed

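RNA of U-87 cells was sequenced from 3′ end libraries in 9 samples, grouped by the treatment named in their labels. The deposited table holds 159067 RefSeq transcripts with raw counts, made by the authors and not normalised. The submitters' processing notes name HISAT2, HTSeq and hg38. Versions, strand and ambiguity settings are not given in the sources used here. Whether the transcript coordinates used for counting matched the aligned build was not tested. Symbols came from RefSeq GRCh38.p14, by accession and version for 57742 rows and by accession alone for 56301; 45011 rows with 4.63% of counts had no match and stayed as rows of their own. Counts were summed per gene and tested with edgeR 4.0.16 (R 4.3.3), quasi-likelihood F-test and TMM, where the mean count of the fitted libraries was 10 or more, p-values adjusted by Benjamini-Hochberg and called under 0.05. Single treatments shared 1 fit of 9 libraries. Normalised levels are CPM with TMM factors. Shares of nuclear counts were compared by exact permutation tests (scipy 1.17.1), with Wilson intervals at 95%. Alternatives used DESeq2 1.42.0 and limma 3.58.1. Every fit was tested on simulated counts. Depth was 213566 to 490235 counts per library.

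The members, gene lists, tests and alternatives were chosen with earlier results of these data known. Named genes were the members, the 3 cytosolic ribosomal protein genes next in mean count, the 3 rows most like each member, and up to 5 tested genes per list by mean count. SNORD72 was also followed as an RNA encoded within RPL37, and the ratio of EEF2 to RPS6 and the comparison of neighbours in the order of levels were added after values were seen. Fold changes compare levels of 1 gene between libraries, and no level was compared between genes per length.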

Additional observations from a re-analysis of the deposited data

How the results depend on the processing

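Of 592 repeats of 45 results (the members' values and the counts of rows passed in single treatments) under other settings, 528 kept their direction and their side of the threshold, and no member passed under limma-voom or the Wald test of DESeq2. Passing values appeared with size factors of DESeq2 for RPS6 in EA35TMZ320 (0.27) and RPLP2 in EA20TMZ380 (0.31), with library totals for RPS6 and RPLP2 in EA30 (-0.28, -0.31) and EA20TMZ580 (-0.36, -0.35) and RPL37 in EA20TMZ380 (-1.48), with nuclear counts only for RPS6 in EA45, EA35TMZ320, EA20TMZ380 and EA20TMZ580 (0.25, 0.31, 0.21, -0.14) and RPLP2 in EA45, EA35TMZ320, EA20TMZ380 and TMZ600 (0.21, 0.24, 0.34, -0.20), with each transcript as its own row for RPS6 in EA35TMZ320 (0.24), and with a separate fit of each treatment and the controls for RPS6 in EA35TMZ320 (0.28) and RPLP2 in EA20TMZ380 (0.36). Signs turned, with no value passing, with library totals for RPS6 and RPLP2 in EA45 (-0.040, -0.083), EA20TMZ380 (-0.17, -0.035), the 3 combinations (-0.14, -0.12), EA alone (-0.15, -0.19), the 6 treatments (-0.13, -0.15) and per 10 µM EA (-0.018, -0.021), for RPLP2 in EA35TMZ320 (-0.0058) and for the product term of RPS6 (-3.51e-05). In EA30, where both values are near 0, RPS6 and RPLP2 turned with nuclear counts only (0.041, 0.012), no filter (0.044, 0.014), a mean of at least 50 counts (0.030, 0.00053) and separate fits of each treatment (0.048, 0.018). The product term of RPS6 also turned without the filter (-0.0036), and the differences in share turned as shares of all counts (-0.336, -0.325). Leaving out 1 library gave 0.19 to 0.21 for RPS6 in EA45, 0.23 to 0.24 in EA35TMZ320 and 0.22 to 0.27 for RPLP2 in EA20TMZ380, all passing only without control 1. Over such repeats RPL37 ran from -0.31 to 0.10 in EA30, from -0.11 (without EA45) to 0.74 (without EA30) for EA alone, from -0.052 to 0.13 per 10 µM EA and from -0.056 to 0.0016 for the product term, RPLP2 from -0.0056 to 0.12 for the 6 treatments and from -0.028 to 0.0023 per 100 µM TMZ, and RPS6 from -0.024 to 0.0057 per 100 µM TMZ and from -0.0036 to 0.037 for the product term. The Wald test of DESeq2 passed 41, 113, 150, 57, 53 and 20 rows in EA30, EA45, EA35TMZ320, EA20TMZ380, EA20TMZ580 and TMZ600, fewer than edgeR by over 1.5 times in each, and without the filter 101 passed in EA20TMZ380 and 94 in EA20TMZ580. Leaving out 1 control gave 99 to 164 rows in EA20TMZ580 and 33 to 78 in TMZ600. With library totals, the share of passed rows that were higher was 19.1% in EA30 against 50.5%, 35.0% in EA45 against 50.8%, 20.7% in EA20TMZ380 against 45.3% and 27.6% in EA20TMZ580 against 50.7%. Where not stated in the text, the cause was not tested. Adding pseudogene counts could not be run, since no such symbol had a row. RPL37 has no value with a mean of at least 50 counts. No paired analysis was possible because each treatment has 1 library and the numbers of the controls pair no libraries. RPL37 had 13 to 45 counts per library.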
